A study of Mus musculus with 4 samples.

Results

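Tnfsf11 encodes RANKL, the cytokine that osteoclasts need to form, and tdTomato is the red fluorescent reporter that marks cells with past or present activity of the Tnfsf11 locus in these mice. The 2 genes were taken by name from the 32286 rows of the count matrices and were followed in every cell class. Cxcl12-abundant reticular (CAR) cells, the marrow stroma that supports blood formation, were then divided by whether a Tnfsf11 UMI (a counted mRNA molecule) was found, and all other genes were compared between the resulting sets. CAR cells were defined by at least 50 Cxcl12 and under 100 Bglap plus Bglap2 UMIs per 10000 UMIs, at least 500 genes and under 10% mitochondrial counts. This gave 636 of 1452 kept control cells and 390 of 1438 kept immobilized cells.

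All mice carried 1 Tnfsf11tTA allele, in which the Tnfsf11 locus drives the tetracycline transactivator, together with LC1, a transactivator-dependent Cre, and Rosa26LSL-tdTomato, on a C57BL/6J background. Doxycycline, which keeps the transactivator off, was given from conception to birth, so labelling could begin after birth. The control group was 1 pool of 4 mice, and the immobilized group was 1 pool of 6 mice with 2 weeks of hindlimb immobilization from 8 weeks of age. Cells of femurs and tibias of both limbs were sorted as live, CD45.2-, Ter119- and tdTomato+ at 10 weeks. The sort itself was therefore made on activity of the locus under study, and it also selects against blood cells. Shares of cells below are shares of sorted cells, not of tissue.

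Each pool was sequenced on 2 lanes of the same library, which were counted as 1 sample, and UMI numbers are lane means that can end in 0.5. Lane totals were between 9960011 and 10860328 UMIs. There are no replicate animals to compare, so no test was possible, and every interval is a 95% interval that covers counting error only. Of the CAR cells, 567 control and 344 immobilized cells lay in clusters resembling Lepr+ CAR stroma, which had Lepr, Cxcl12, Kitl, Foxc1 and Ebf3 among their markers. A further 38 control and 2 immobilized cells lay in the pericyte or smooth muscle-like cluster, and 23 and 40 in osteo-primed-like clusters. Median depth of the CAR cells was 4015 UMIs in the control and 4466.5 UMIs in immobilized cells. Cells that could be sexed by Xist or Y-linked genes were 280 female and 283 male in the control pool, but 98 female and 243 male in immobilized cells.

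RANKL on stromal cells binds its receptor RANK on osteoclast precursors and drives their fusion and survival, while the decoy receptor osteoprotegerin blocks it. In bone, Tnfsf11 transcription is induced by parathyroid hormone through cyclic AMP, by vitamin D through its receptor, and by cytokines that signal through gp130 and STAT3. Unloaded bone loses mass through greater resorption than formation.

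The locus that drives both the cytokine and, on the targeted allele, the labelling cascade is the protein-coding gene Tnfsf11 (ENSMUSG00000022015), on the minus strand of mm10 chromosome 14 from 78277445 to 78308043. The 250 bases before its RefSeq transcription start are shown because this start region lies upstream of both. They span chr14:78308044-78308293 on GRCm38.p6 and are written 5′ to 3′ on the minus strand, with the TATA core in capitals.
Tnfsf11: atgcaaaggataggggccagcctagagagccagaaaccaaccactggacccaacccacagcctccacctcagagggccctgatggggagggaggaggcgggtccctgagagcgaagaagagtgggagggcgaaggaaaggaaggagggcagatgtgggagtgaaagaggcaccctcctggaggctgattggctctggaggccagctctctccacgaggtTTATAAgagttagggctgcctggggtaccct
Both strands were searched for these motifs. TATAA, the core of a TATA box, matched 30 bases upstream on the strand of the gene and, overlapping it, 31 bases upstream on the reverse strand, and it occurs in 22.8% of 32851 mouse promoters of the same length. CCAAT matched on the reverse strand 64 bases upstream and occurs in 33.8%. GGGCGG (in 32.7%), the RUNX core TGTGGT (14.0%), the cyclic AMP response element TGACGTCA (1.55%) and the DR3 repeat bound by the vitamin D receptor (0.00609%) had no match in this window. Of the 2 genes, 1 matched a RefSeq promoter, and no sequence is shown for tdTomato.

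Tnfsf11 mRNA was higher in CAR cells of the immobilized pool. In the control pool it stood at 95.7 and 79.6 UMIs per 1000000 UMIs (CPM) in lanes 1 and 2, with a mean of 87.6 CPM (77.2 to 99.0, 257 UMIs). In immobilized CAR cells it stood at 213.8 and 213.2 CPM, with a mean of 213.5 CPM (193.9 to 234.6, 433 UMIs). The lanes of the pools did not overlap. The log2 ratio of immobilized over control was 1.28 (1.06 to 1.51). The share of CAR cells with a Tnfsf11 UMI was 21.7% (18.6 to 25.1) and 46.4% (41.4 to 51.5), and 12.6% and 29.9% after each cell was thinned to 2000 UMIs (57 and 21 shallower cells were dropped). Haematopoietic-like cells were taken as a rough guide to free RNA. Of these, 3.16% of 79 control and 1.06% of 141 immobilized cells had a UMI, at median depths of 2718 and 1760 UMIs. Their level was 20.9 CPM (8.74 to 42.1, 7.5 UMIs) in the control and 5.25 CPM (0.636 to 19.0, 2 UMIs) in the immobilized pool. Both values were below the level of CAR cells of the same pool. Of the 7.5 control UMIs, 6 came from granulocyte-like cells, where a lane mean of 1 of 48 cells had a UMI. The control value is therefore not a plain level of free RNA.

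tdTomato mRNA differed less between the pools. In control CAR cells it stood at 54.6 and 55.2 CPM in the lanes (mean 54.9 CPM, 46.7 to 64.1, 161 UMIs). In immobilized CAR cells it stood at 79.4 and 71.1 CPM (mean 75.2 CPM, 63.7 to 88.1, 152.5 UMIs). The log2 ratio was 0.45 (0.12 to 0.78). Although every cell had been sorted as tdTomato+, 20.7% of control and 27.7% of immobilized CAR cells had a tdTomato UMI (10.0% and 13.8% after thinning), and in 2.53% and 1.77% of the haematopoietic-like cells. At this depth a cell without a UMI of either gene can still express it. Whether transcripts of the targeted allele were counted as Tnfsf11 was not tested.

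Female and male cells of the control pool differed in level. Tnfsf11 in female CAR cells stood at 121.9 CPM in the control and 251.3 CPM in immobilized cells, a log2 ratio of 1.05 (0.70 to 1.38). Male CAR cells had 58.2 and 210.9 CPM, or 1.85 on the log2 scale (1.48 to 2.25). The level was higher after immobilization in both sexes, and the control level of male cells was below that of female cells. In immobilized cells the intervals of female (209.8 to 298.6 CPM) and male cells (186.7 to 237.4 CPM) overlapped. For tdTomato, female cells had 47.6 and 73.1 CPM, a ratio of 0.63 (0.00055 to 1.22), and male cells 63.7 and 76.1 CPM, a ratio of 0.25 (-0.18 to 0.70). Mice of the same sex in a pool cannot be told apart, so a gap between the sexes cannot be told from one between single animals. Whether the sexes differed in their response was not tested.

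**Figure D1:**
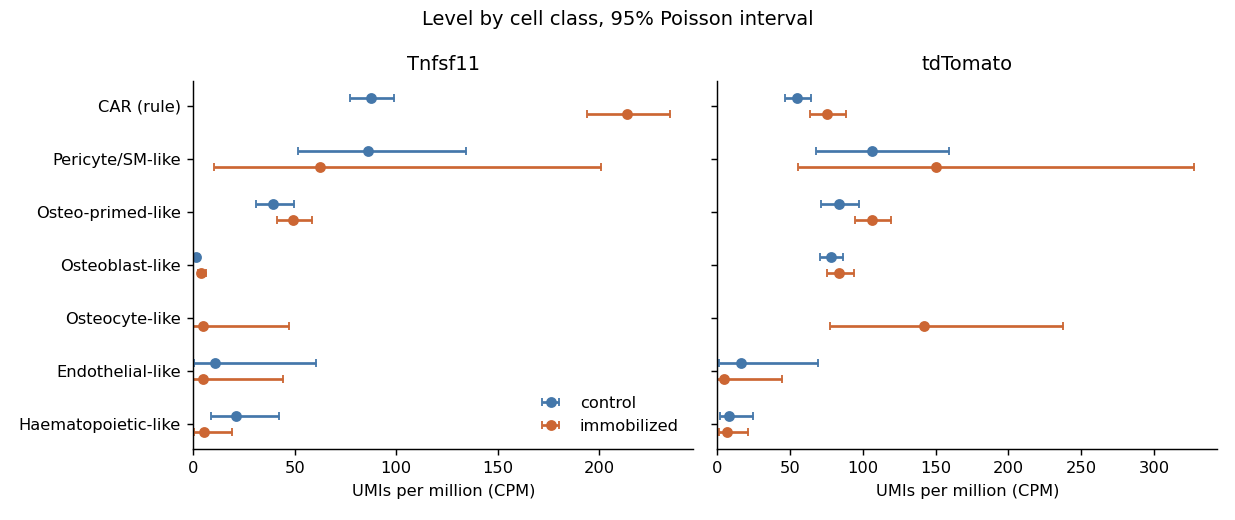
Level of Tnfsf11 (left) and tdTomato (right) in CPM, by cell class, in the control (blue) and immobilized (orange) pool. Points are means of 2 lanes and bars are 95% Poisson intervals. Tnfsf11 stands at 87.6 and 213.5 CPM in CAR cells and at 1.3 and 3.88 CPM in osteoblast-like cells, whereas tdTomato stands at 78.3 and 84.0 CPM there. Osteocyte-like cells of the control pool (5 cells) are not drawn.

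The 2 genes had different orders across cell classes. Tnfsf11 was highest in Lepr+ CAR-like cells, at 89.4 CPM in 585 control and 221.0 CPM in 367 immobilized cells. Pericyte or smooth muscle-like cells had 86.0 CPM in 51 control cells (51.8 to 134.3), which overlapped the Lepr+ CAR-like interval, and 62.6 CPM in only 7 immobilized cells. Osteo-primed-like cells, stroma on the way to the osteoblast, had 39.4 CPM in 247 control and 49.3 CPM in 418 immobilized cells (log2 ratio 0.32, -0.10 to 0.75), so a difference between the pools was not detectable there at this depth. Osteoblast-like cells had 1.3 CPM on 6.5 UMIs in 476 control cells and 3.88 CPM on 15 UMIs in 445 immobilized cells (log2 ratio 1.57, 0.22 to 3.22). Their median depth of 9735 and 8284.5 UMIs was the greatest of the named classes drawn in the plot of levels. Lepr+ CAR-like cells contributed 68.4% (63.2 to 73.3) of the Tnfsf11 UMIs of the control pool and 73.1% (69.3 to 76.7) of those of the immobilized pool, and osteo-primed-like cells held 21.7% and 23.3%.

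tdTomato, in contrast, was present throughout the skeletal cells. It stood at 106.3 CPM in control pericyte or smooth muscle-like cells (67.8 to 158.9), at 83.6 and 106.2 CPM in osteo-primed-like cells (log2 ratio 0.34, 0.06 to 0.63), and at 78.3 and 84.0 CPM in osteoblast-like cells (0.10, -0.12 to 0.31). Lepr+ CAR-like cells had 53.3 and 72.9 CPM, and 42 immobilized osteocyte-like cells had 141.7 CPM (77.5 to 237.7). Endothelial-like cells had 16.3 CPM on 1.5 UMIs and 4.73 CPM on 0.5 UMIs, and haematopoietic-like cells 8.37 and 6.56 CPM. Osteoblast-like cells held 55.4% of all tdTomato UMIs in the control and 41.9% in immobilized cells, against 1.89% and 2.61% of the Tnfsf11 UMIs.

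In control granulocyte-like cells, 6 Tnfsf11 UMIs were found in 2.08% of 48 cells, and 0 UMIs in 67 immobilized granulocyte-like cells.

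Within the Lepr+ CAR-like class, the level of Tnfsf11 ran from 15.8 to 134.4 CPM over 4 clusters in the control and from 83.0 to 275.6 CPM after immobilization. Cluster 4, led by Nrg3, Ptn, Aldh1a2 and Shisa9, had the highest control level, 134.4 CPM in 256 cells, and 262.0 CPM in 83 immobilized cells (log2 ratio 0.97, 0.60 to 1.33). Cluster 12, led by Lrrn1, Ryr2 and Serpina3n, went from 52.5 CPM in 167 control cells to 275.6 CPM in 167 immobilized cells (2.37, 1.87 to 2.96). Cluster 0, led by Kcnq3 and Chl1, had 15.8 CPM on 3.5 UMIs in 46 control cells and 162.2 CPM in 62 immobilized cells (3.18, 1.84 to 5.46). Cluster 5, led by Fabp4, Sparcl1 and Kit, had 64.4 and 83.0 CPM (0.38, -0.42 to 1.13). The control levels of clusters 5 and 12 overlapped in their intervals, as did the immobilized levels of clusters 4 and 12.

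The mean levels of the reporter did not follow this order. tdTomato stood at 41.6 and 79.5 CPM in cluster 4 (0.94, 0.25 to 1.60), at 59.6 and 70.7 CPM in cluster 12 (0.24, -0.36 to 0.87), at 61.0 and 50.6 CPM in cluster 0 (-0.28, -1.39 to 0.88) and at 67.9 and 94.2 CPM in cluster 5 (0.48, -0.27 to 1.20). The cluster with the highest control level of Tnfsf11 had the lowest control level of tdTomato among the 4 clusters. The interval of that level (30.9 to 54.9 CPM) overlapped those of clusters 12 (42.1 to 81.7), 0 (32.9 to 103.3) and 5 (48.2 to 93.0), so the order is not resolved. In immobilized cells the lowest tdTomato level was that of cluster 0. Clusters 4 and 5 held more control than immobilized cells, with 256 and 83 in cluster 4 and 116 and 55 in cluster 5. Cluster 12 held 167 of each.

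**Figure D2:**
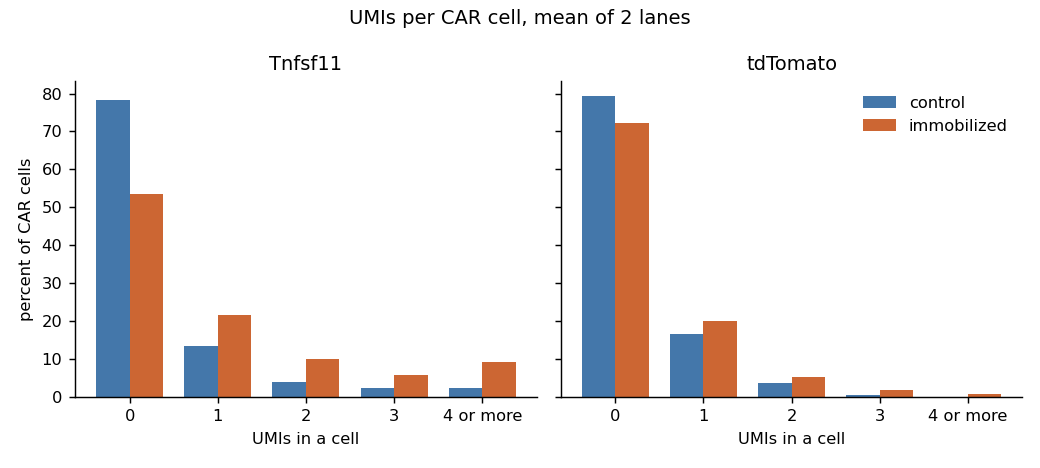
Percent of CAR cells (vertical axis) with 0, 1, 2, 3 or at least 4 UMIs of Tnfsf11 (left) and tdTomato (right), in the control (blue) and immobilized (orange) pool, as means of 2 lanes. Cells with at least 4 Tnfsf11 UMIs were 2.28% of control and 9.10% of immobilized CAR cells.

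The higher mean came with more cells at every number of Tnfsf11 UMIs. Cells with 1 UMI were 13.4% of control and 21.7% of immobilized CAR cells, those with 2 UMIs 3.77% and 10.0%, those with 3 UMIs 2.28% and 5.64%, and those with at least 4 UMIs 2.28% and 9.10%. The largest number in any cell was 10 in the control and 14 in immobilized cells. For tdTomato, cells with 1 UMI were 16.6% and 19.9%, and those with at least 4 UMIs 0% (up to 0.472% by the limit of 3 counts) and 0.769%.

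The gap in Tnfsf11 was present at each depth. Among CAR cells with up to 3469.83 UMIs, Tnfsf11 was detected in 14.6% of control cells and in 35.7% of immobilized ones. Between that depth and 5066 UMIs the shares were 21.4% and 43.3%, and above it 30.9% and 56.6%. The corresponding tdTomato shares were 11.4% and 14.8%, 20.2% and 21.6%, and 32.7% and 42.1%. The intervals of the Tnfsf11 shares did not overlap between pools in any of the depth ranges, and those of tdTomato overlapped in all of them.

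Both genes were then examined in the same cells. In control CAR cells 5.19% had UMIs of both genes, 16.5% of Tnfsf11 alone, 15.5% of tdTomato alone and 62.8% of neither. The product of the separate shares is 4.49%. In immobilized CAR cells 14.1% had both, 32.3% Tnfsf11 alone, 13.6% tdTomato alone and 40.0% neither, against a product of 12.9%. After thinning to 2000 UMIs the share with both was 1.04% against a product of 1.26% in the control and 4.20% against 4.14% in immobilized cells. In osteo-primed-like cells at full depth it was 6.28% against 6.52% in the control and 7.66% against 7.58% in immobilized cells. In osteoblast-like cells the share with both was 0.735% (3.5 cells) against 0.612% in the control. Among their immobilized cells it was 2.02% (9 cells) against 1.30%. Joint detection was thus close to the product of shares in CAR and osteo-primed-like cells, and above it in the few osteoblast-like cells with Tnfsf11. Whether it differed from the product was not tested.

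At matched depth, 23.3% of control CAR cells with a Tnfsf11 UMI had a tdTomato UMI (17.3 to 30.2), against 18.5% of those without (13.1 to 25.0). Among immobilized cells these were 26.9% (20.2 to 34.5) and 25.0% (18.5 to 32.5). The differences were 4.78 percentage points (-4.07 to 13.6) and 1.90 points (-8.18 to 11.9). A difference in reporter detection between cells with and without Tnfsf11 was not detectable at this depth.

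To name the partners of Tnfsf11, CAR cells with a UMI in either lane (179 control, 220 immobilized) were paired 1 to 1 by total UMIs with cells that had none in either lane. This left 178 cells in each control set, with median depths of 4495.5 and 4484.75 UMIs, and 158 cells in each immobilized set, with 4288 and 4278.25 UMIs, while 62 immobilized cells with a UMI found no partner. Gene ratios below are log2 ratios of CPM, with over without a Tnfsf11 UMI, and the difference in Tnfsf11 itself is how the sets were made. The sets also differed otherwise. In the control pool 71.3% of sexed cells with Tnfsf11 were female, against 41.1% of those without, and cluster 4 held 105 and 53 of the cells. For the immobilized sets, female cells were 30.1% and 23.7%, and cluster 12 held 79 and 49 of the cells. Osteo-primed-like cluster 3 held 8 immobilized cells with and 26 without Tnfsf11, against 3 and 3 in the control. Ratios from sets paired for depth within sex or within cluster are therefore given beside many of the named genes.

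Of 6403 genes with at least 50 UMIs in the control sets, 227 (3.55%) were at least 1.5-fold higher and 179 (2.8%) at least 1.5-fold lower in cells with Tnfsf11, 6.34% in either direction. Of 5794 genes in the immobilized sets, 209 (3.61%) were higher and 197 (3.4%) lower, 7.01% in either direction. The median log2 ratio over all genes was 0.02 in the control and 0.0014 in immobilized cells. Pairing within cluster left 250 of 5959 control (4.20%) and 297 of 5025 immobilized genes (5.91%) past 1.5-fold. Among 5619 genes compared in both pools, 30 were higher in both, which is 18.1% of the 166 in the control and 16.0% of the 187 in immobilized cells. A further 25 were lower in both, 18.1% of 138 and 14.3% of 175.

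**Figure D3:**
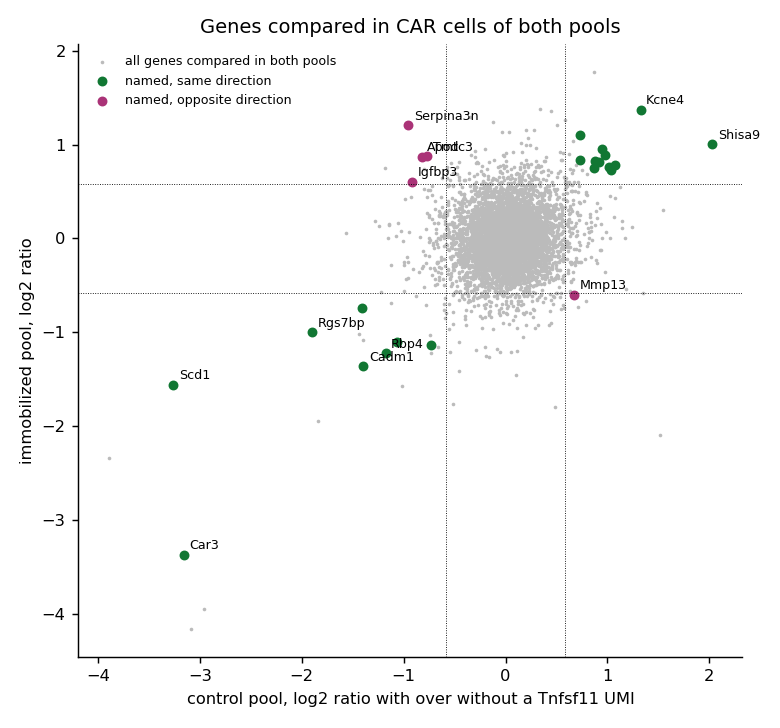
Log2 ratio of each of 5619 genes between CAR cells with and without a Tnfsf11 UMI at matched depth, in the control (horizontal axis) and immobilized pool (vertical axis). Dotted lines mark 1.5-fold. Green points are 20 named genes past it in the same direction in both pools, purple points are 5 genes in opposite directions, and unnamed grey points include genes that missed the detection or interval conditions in a pool.

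Genes on the same side in both pools included secreted and signalling genes. By the naming rule, 39 genes passed 1.5-fold in the same direction with an interval without 1, UMIs in at least 10% of the cells of a set and one sign across both lanes, and the 20 with the largest ratios are drawn. Kcne4, a subunit that modulates potassium channels (chromosome 1, 78816758 to 78820028), stood at 68.0 CPM with and 26.8 CPM without Tnfsf11 in the control (log2 ratio 1.33, 0.66 to 2.07). In immobilized cells it stood at 151.2 and 58.1 CPM (1.37, 0.87 to 1.91). Within cluster the ratios were 0.53 (-0.06 to 1.14) and 0.34 (-0.25 to 0.94), with intervals that included 0.

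Aldh1a2, which makes retinoic acid (chromosome 9, 71215789 to 71296243), stood at 625.0 and 339.5 CPM in the control (0.88, 0.68 to 1.08) and at 273.9 and 154.3 CPM in immobilized cells (0.83, 0.50 to 1.16). It stayed higher in cells with Tnfsf11 within sex (0.43 and 0.48) and within cluster (0.22, 0.04 to 0.41, and 0.43, 0.07 to 0.79). The secreted protease gene Adamts1 (chromosome 16, 85793827 to 85803113) stood at 153.2 and 72.3 CPM in the control (1.08) and 171.2 and 99.4 CPM in immobilized cells (0.78). Within cluster it stood at 0.48 (0.07 to 0.91) and 0.26 (-0.20 to 0.74). Gxylt2, a glycosyltransferase gene, had ratios of 0.73 and 1.10, and within cluster 1.03 and 0.42, with intervals without 0 in each case.

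Shisa9, known as an auxiliary subunit of glutamate receptors, had 50.5 UMIs with and 12 without Tnfsf11 in the control (2.03, 1.15 to 3.12) and 86.5 and 43 UMIs in immobilized cells (1.00, 0.47 to 1.57). Within cluster its ratios were 0.90 (0.08 to 1.81) and 0.87 (0.32 to 1.45). Pi15, a peptidase inhibitor gene, stood at 1.04 and 0.73 (within cluster 0.28 and 0.86), the growth factor genes Tgfb2 at 1.02 and 0.77 and Ptn at 0.98 and 0.89, and the natriuretic peptide receptor gene Npr2 at 0.73 and 0.83. Within cluster the intervals of Pi15 were -0.16 to 0.73 and 0.35 to 1.39. Tgfb2 stood there at 0.46 (-0.24 to 1.20) and 0.61 (-0.07 to 1.33), and Npr2 at 0.65 (-0.09 to 1.45) and 0.82 (0.002 to 1.72). Ptn stood at 0.41 within sex in the control but at -0.06 in immobilized cells. Tsix, which overlaps Xist on the other strand, stood at 0.92 and 0.81 and stood at -0.10 within sex in the control.

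**Figure D4:**
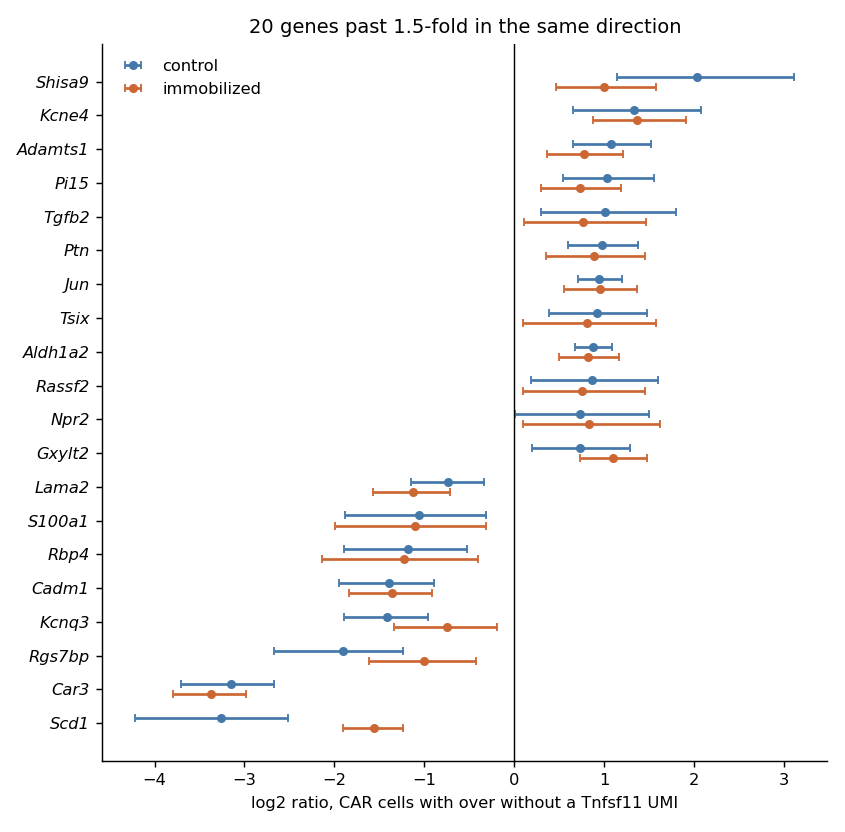
Log2 ratio (horizontal axis) of the 20 genes past 1.5-fold in the same direction in both pools, CAR cells with over without a Tnfsf11 UMI at matched depth, with 95% intervals from counting error, in the control (blue) and immobilized (orange) pool. Higher genes run from Shisa9 at 2.03 and 1.00 to Gxylt2 at 0.73 and 1.10, and lower genes reach Scd1 at -3.26 and -1.56.

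Genes lower in cells with Tnfsf11 in both pools included lipid genes, and these rested on few cells. Car3, a carbonic anhydrase gene abundant in fat cells, had ratios of -3.15 in the control and -3.37 in immobilized cells, but 49.2% and 69.4% of its UMIs in the cells without Tnfsf11 came from 1 cell. Without the top cell of each set the ratios were -2.31 and -2.21, and within cluster -0.45 (-1.14 to 0.21) and -1.39. Scd1, a fatty acid desaturase gene, had ratios of -3.26 and -1.56. Within cluster they were -0.94 (-2.06 to 0.07) and -0.40 (-0.83 to 0.02). The laminin chain gene Lama2 stood at 89.4 and 148.8 CPM in the control (-0.73) and 87.9 and 193.0 CPM in immobilized cells (-1.13), and within cluster at -0.53 (-0.96 to -0.11) and -0.84 (-1.30 to -0.41). The adhesion gene Cadm1 stood at -1.40 and -1.36, but at -0.38 (-1.02 to 0.24) and -0.36 (-0.88 to 0.14) within cluster. The G protein regulator binding gene Rgs7bp (-1.90 and -1.0), the potassium channel gene Kcnq3 (-1.41 and -0.75), the retinol carrier gene Rbp4 (-1.18 and -1.22) and S100a1 (-1.06 and -1.11) completed the list. Within cluster, Rgs7bp stood at -0.26 (-1.16 to 0.62) in the control and -1.09 in immobilized cells, and Kcnq3 at -1.23 and -0.24 (-0.77 to 0.28). Rbp4 stood at -0.05 (-0.87 to 0.77) and -0.44 (-1.35 to 0.43), and S100a1 at -0.64 and -0.57, with intervals that included 0.

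In the control pool, the genes with the highest ratios after Shisa9 were Col6a5, a collagen chain gene (77.1 and 25.7 CPM, 1.57, 0.90 to 2.32), Gsdme (1.54), the oestrogen-responsive Greb1 (1.53) and the interferon-induced chemokine gene Cxcl9 (1.52). Col6a5 kept a ratio of 1.26 within sex and 1.15 within cluster. Gsdme stood at 0.66 within sex and 0.54 (-0.05 to 1.15) within cluster, and Greb1 at 0.61 and 0.32 (-0.18 to 0.83). For Cxcl9, 48.2% of the UMIs in cells with Tnfsf11 came from 1 cell, and the ratio was 1.00 without the top cells, -2.54 in male cells and -1.10 in lane 2 alone.

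Also named in the control were Gbp6 (1.49), Lcp2 (1.35), Tnfaip6 (1.28), Tgfbi (1.24), Ifitm1 (1.21) and the aggrecanase gene Adamts5 (1.18). Within cluster Gbp6 stood at 1.31, Lcp2 at 0.75 and Ifitm1 at 0.50 (-0.31 to 1.37). Tgfbi, which encodes a matrix protein induced by TGF-beta, stood at 1.12 within sex and 0.95 within cluster. Of the Tnfaip6 UMIs in cells with Tnfsf11, 56.6% came from 1 cell, and the ratio was 0.52 without the top cells. Adamts5 stood at 264.6 and 116.2 CPM, with 0.49 within sex (0.20 to 0.79) and 0.37 within cluster (0.06 to 0.68).

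The lowest control ratio was that of Cxcl5, a chemokine that attracts neutrophils (chromosome 5, 90759360 to 90761624). It had 3 UMIs in cells with and 52.5 UMIs in cells without Tnfsf11 (-3.92, -6.45 to -2.50), and -3.52 within sex and -3.20 within cluster. In immobilized cells Cxcl5 lay the other way, with 37 UMIs with and 7 UMIs without Tnfsf11 (2.32, 1.22 to 3.81), too few to pass the minimum of 50 UMIs, and 43.2% of the 37 came from 1 cell. Spp1, which encodes the bone matrix protein osteopontin (chromosome 5, 104435118 to 104441050), stood at 1096.3 and 2555.0 CPM (-1.22, -1.33 to -1.11). It was lower in cells with Tnfsf11 under all 14 alternatives, with -0.87 within sex and -0.54 within cluster. In immobilized CAR cells Spp1 stood at 2228.1 and 3303.9 CPM (-0.57, -0.66 to -0.48).

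The other low control genes were mostly matrix genes. Col11a2 (-1.98), Col11a1 (-1.28) and Col1a1 (-1.25), genes of fibrillar collagens, had 54.7%, 34.1% and 45.5% of their UMIs in cells without Tnfsf11 in 1 cell. Without the top cell of each set the ratios were -1.03, -0.76 and -0.43, and with doublet calls left out they were 0.17 for Col11a2, 0.02 for Col11a1 and 0.07 for Col1a1. Mmp16, a membrane-type metalloprotease gene, stood at -1.56 and -0.48 within cluster, and Slc36a2, an amino acid transporter gene, at -1.28 and -0.61 within cluster. Both within-cluster intervals included 0 (-1.44 to 0.45 and -1.49 to 0.23).

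Among immobilized cells, the genes with the highest ratios were Srgn, Zfpm2, Kcne4 and Fbln1. Srgn, the proteoglycan gene serglycin, had 40.5 and 11.5 UMIs (1.77, 0.85 to 2.90), and 1.39 within sex and 1.36 within cluster. Zfpm2, a cofactor of GATA transcription factors (chromosome 15, 40655035 to 41104592), stood at 86.6 and 32.9 CPM (1.38, 0.72 to 2.11), with UMIs in 22.5% and 6.65% of cells. Fbln1, which encodes the matrix protein fibulin-1 (chromosome 15, 85205949 to 85286535), stood at 131.8 and 51.0 CPM (1.36, 0.83 to 1.94), with UMIs in 36.1% and 18.0% of cells. Zfpm2 and Fbln1 were higher in cells with Tnfsf11 under all 14 alternatives, with 0.78 and 1.07 within cluster. In the control pool their ratios were 0.34 (-0.07 to 0.76) and 0.45 (0.18 to 0.73).

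Serpina3n, a serine protease inhibitor gene (chromosome 12, 104406729 to 104414329), stood at 160.2 and 69.1 CPM in immobilized cells (1.21, 0.74 to 1.70), and at 1.30 within sex and 0.80 within cluster. Its control ratio was -0.95, but 0.13 within sex. Irs2, an adaptor of insulin and IGF receptors, stood at 1.16 and at 1.31 within cluster, and Arrdc3, an arrestin-domain gene, at 1.23 and 1.32. Cd55, a brake on complement, stood at 1.15 (1.22 within cluster), Rnf150 at 1.21 (0.60) and Lrrn1, a leading gene of cluster 12, at 1.24 (0.40). The within-cluster intervals of Rnf150 (-0.08 to 1.31) and Lrrn1 (-0.22 to 1.04) included 0. The haem oxygenase gene Hmox1 (1.30) and the neutrophil granule gene Ngp (1.26) had at least 50% of their UMIs in cells with Tnfsf11 in 1 cell, and stood at 0.50 and 0.33 without the top cells.

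The lowest immobilized ratio was that of Fabp4, the fatty acid carrier of fat cells, at 17.4 CPM with and 322.1 CPM without Tnfsf11 (-4.16, -5.12 to -3.42). Although 1 cell held 50.5% of the UMIs in cells without Tnfsf11, the ratio was -3.33 without the top cells and -3.29 within cluster, and it kept its direction under all 14 alternatives. In the control Fabp4 stood at -3.09 but was found in 4.21% and 3.65% of cells, with most UMIs of each set in 1 cell, and stood at -0.08 within cluster. Col25a1 (-2.48), the cadherin gene Fat3 (-2.34), the synaptic adhesion gene Nlgn1 (-1.95), Ndnf (-1.80), Nhsl1 (-1.77), the matrix gene Postn (-1.56), the guanylate cyclase gene Gucy1a1 (-1.55) and the channel-interacting gene Kcnip4 (-1.45) followed. Within cluster these lay between -1.20 for Col25a1 and 0.54 for Nlgn1. Nlgn1 and Ndnf are leading genes of osteo-primed-like cluster 3, which held 37 immobilized CAR cells.

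The receptors and effectors known to act upstream of Tnfsf11 were read from a list of 20 genes. Of 17 measured in the control, 2 (Vdr and Lifr) were past 1.5-fold higher and 0 lower, against 3.55% and 2.8% of all genes. The median log2 ratio was -0.13, against 0.02 over all genes. Of 16 measured in immobilized cells, 2 (Vdr and Ptger4) were higher and 0 lower, against 3.61% and 3.4% of all genes, with a median of 0.06. Vdr, the vitamin D receptor (chromosome 15, 97854425 to 97910630), was past 1.5-fold in both. It stood at 73.4 and 48.7 CPM in the control (0.59, 0.03 to 1.16) and at 361.8 and 238.2 CPM in immobilized cells (0.60, 0.33 to 0.88). Within sex these ratios were 0.47 (-0.09 to 1.04) and 0.57 (0.29 to 0.86), and within cluster 0.71 (0.11 to 1.35) and 0.50 (0.18 to 0.83). Vdr kept its direction under all 14 alternatives in each pool.

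Among the gp130 family, Lifr, the receptor of leukaemia inhibitory factor, stood at 1984.9 and 1266.2 CPM in the control (0.65, 0.54 to 0.75; 0.33 within sex and 0.53 within cluster). For the immobilized sets, it stood at 1781.7 and 1708.4 CPM (0.06, -0.05 to 0.17; 0.44 within cluster). Osmr, the oncostatin M receptor, stood at 0.01 in the control and 0.50 (0.15 to 0.85) in immobilized cells, and at 0.16 within cluster there. The shared subunit Il6st stood at 0.09 and 0.19, with intervals on both sides of 0. Stat3, the transcription factor downstream, stood at 0.18 (-0.06 to 0.43) and 0.35 (0.09 to 0.62), and at 0.46 (0.17 to 0.75) within cluster in immobilized cells.

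Pth1r, the parathyroid hormone receptor, was not higher in cells with Tnfsf11. It stood at 130.1 and 161.7 CPM in the control (-0.31, -0.67 to 0.04) and 115.0 and 162.0 CPM in immobilized cells (-0.49, -0.90 to -0.09), and within cluster at -0.16 and -0.0081. Il1r1, the interleukin 1 receptor, stood at -0.21 and 0.37. The prostaglandin receptor Ptger4 stood at -0.54 (-1.30 to 0.18) and 0.62 (-0.12 to 1.41). Runx2, the osteoblast transcription factor, stood at 0.03 and -0.21, and the transcription factor gene Mef2c at -0.40 in each pool.

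**Figure D5:**
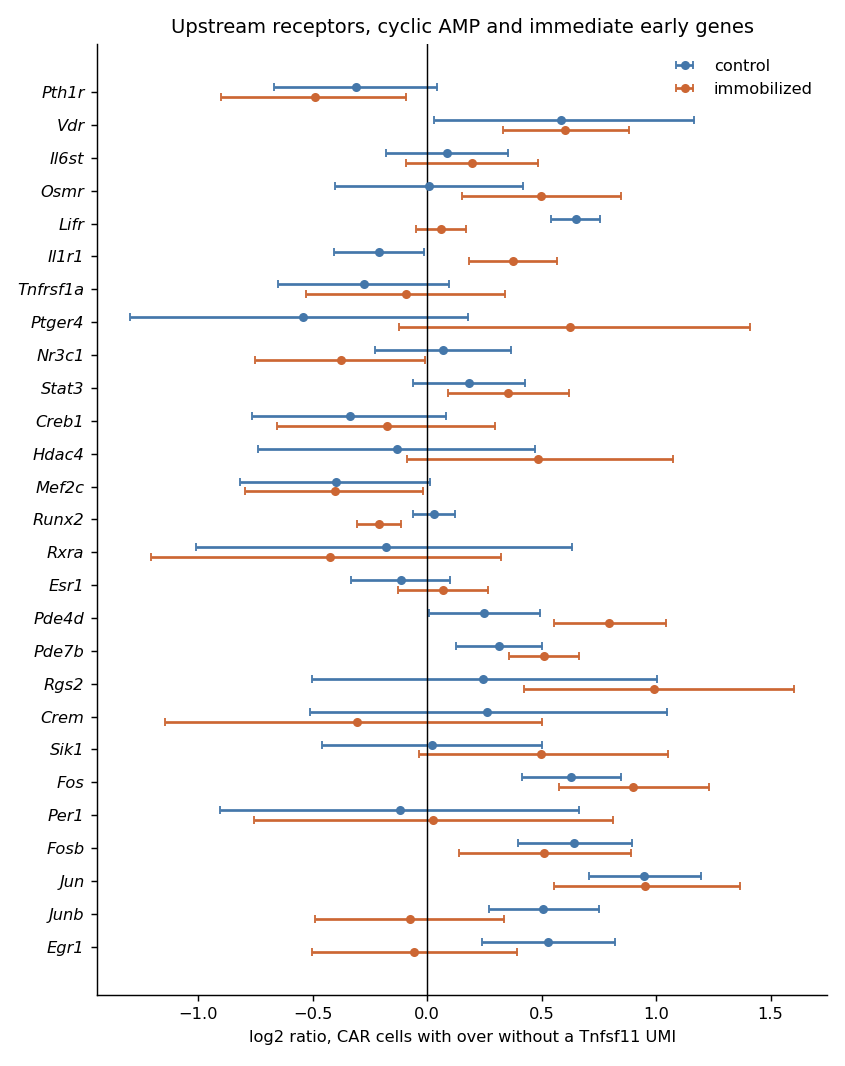
Log2 ratio (horizontal axis), CAR cells with over without a Tnfsf11 UMI at matched depth, of receptors and effectors upstream of Tnfsf11, cyclic AMP genes and immediate early genes compared in both pools, with 95% intervals from counting error (control blue, immobilized orange). Vdr lies at 0.59 and 0.60, Pde7b at 0.31 and 0.51, and Jun at 0.95 and 0.95.

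Genes that dampen or answer cyclic AMP lay mostly above 0. Of the list of 14, 2 of 8 measured in the control (Nr4a1 and Fos) were past 1.5-fold higher, against 3.55% of all genes. In immobilized cells 3 of 9 were (Pde4d, Rgs2 and Fos), against 3.61%. In each pool 0 were lower, and the medians were 0.25 and 0.50. Control Nr4a1 stood at 0.76, but at 0.30 (-0.28 to 0.90) within sex and 0.32 (-0.27 to 0.93) within cluster. Control Fos stood at 0.09 (-0.12 to 0.30) within cluster, and Fos is counted again below among immediate early genes. Pde7b, a phosphodiesterase that breaks down cyclic AMP, stood at 560.8 and 451.4 CPM in the control (0.31, 0.13 to 0.50) and 1113.1 and 782.2 CPM in immobilized cells (0.51, 0.36 to 0.66). Within cluster it stood at 0.33 (0.13 to 0.53) and 0.32 (0.14 to 0.49). Pde4d, another of the family, stood at 489.7 and 282.0 CPM in immobilized cells (0.79, 0.55 to 1.04; within cluster 0.67), but at -0.04 in its female cells. In the control it stood at 0.25, and at -0.03 within cluster.

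Rgs2, which shortens G protein signals and is itself induced by cyclic AMP, stood at 98.2 and 49.1 CPM in immobilized cells (0.99, 0.42 to 1.60; within cluster 1.00, 0.40 to 1.65). In the control it stood at 0.24 (-0.50 to 1.00), and at -0.85 within sex. Pde3a and Pde3b had too few UMIs to be compared in the control and ratios of -0.08 and -0.25 in immobilized cells.

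Immediate early genes are those whose mRNA appears within minutes of a stimulus or of tissue dissociation. Of 8 measured in the control 3 were past 1.5-fold higher (Fos, Fosb and Jun), against 3.55% of all genes, and 0 lower, with a median of 0.55. Of 5 in immobilized cells 2 were past 1.5-fold higher (Fos and Jun), against 3.61% of all genes, with a median of 0.51. In the control 7 of 8 lay above 0, 5 of them with intervals above 0. In immobilized cells 3 of 5 did, all 3 with intervals above 0. The members below 0 were Ier2 at -0.04 in the control, and Junb at -0.08 and Egr1 at -0.06 in immobilized cells. In the control, Jun stood at 437.0 and 226.5 CPM (0.95, 0.71 to 1.19) but at 0.19 within sex and 0.04 within cluster, and Fos at 0.63 but 0.09 within cluster. In immobilized cells Jun stood at 199.0 and 102.6 CPM (0.95, 0.56 to 1.36), with 1.26 within sex and 1.16 within cluster, and Fos at 292.6 and 156.8 CPM (0.90, 0.58 to 1.23), with 0.84 and 0.87. Dissociation was not measured, and its part in these values was not tested.

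Other genes of the RANKL pathway had median ratios near those of all genes, though 2 control members (Csf1 and Il34) had intervals below 0. Of the 7 besides Tnfsf11, 4 were measured in the control and 3 in immobilized cells, with medians of -0.07 and -0.09. Csf1, the macrophage growth factor that osteoclast precursors also need, stood at 348.7 and 420.8 CPM in the control (-0.27, -0.49 to -0.06; 0.01 within cluster) and 381.2 and 423.4 CPM in immobilized cells (-0.15, -0.38 to 0.08). Il34, a ligand of the same receptor, was the one member past 1.5-fold lower in the control, against 2.8% of all genes. It stood at 188.5 and 296.1 CPM there (-0.65, -0.93 to -0.37), but at 0.13 within sex. In immobilized CAR cells it stood at 0.25. Lgr4, a further receptor of RANKL, stood at 0.17 and -0.09. Tnfrsf11b, the gene of osteoprotegerin, had 0 UMIs with and 4 without Tnfsf11 in the control and 3 and 7 UMIs in the immobilized sets, too few to compare, and Tnfrsf11a, the gene of RANK, had 0 in each. Nfatc1 also had too few UMIs in the control, where it stood at 1.84 (0.53 to 3.61). Its control ratio was 0.85 (-0.30 to 2.15) within sex and 1.26 (0.002 to 2.82) within cluster.

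Genes of CAR identity and of the blood-forming niche differed little. Of 14 genes, 13 were measured in each pool. In either direction 0 passed 1.5-fold, against 6.34% and 7.01% of all genes, and the medians were -0.08 and -0.02. Lepr stood at -0.12 and 0.18, the stem cell factor gene Kitl at -0.08 and -0.02, and Cxcl12, which the rule for CAR cells used, at -0.24 and 0.01. Igf1, a growth factor for bone, was higher in cells with Tnfsf11 in both pools, at 634.7 and 541.3 CPM in the control (0.23, 0.06 to 0.40) and 1277.2 and 893.9 CPM in immobilized cells (0.51, 0.37 to 0.66). Within cluster it stood at 0.26 and 0.28, with intervals above 0.

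Of 12 adipogenic and lipid genes, 7 were measured in each pool, of which 0 were past 1.5-fold higher and 2 lower, Fabp4 and Scd1, against 2.8% and 3.4% of all genes lower. The medians were -0.19 and -0.29, and 3 of 7 control members lay above 0. Adipoq, which CAR cells express, stood at 0.01 and -0.20, and Lpl, a lipase gene, at 0.10 (0.01 to 0.18) and -0.10. Plin1 and Cd36, which had too few UMIs to be compared, lay the same way as Fabp4. Plin1, of the lipid droplet coat, had 0.5 UMIs with and 9 UMIs without Tnfsf11 in the control. After immobilization it had 0.5 and 23 UMIs. The fatty acid transporter gene Cd36 had 2 and 13, and 0 and 14 UMIs. Within cluster, intervals of both genes lay below 0 in immobilized cells but included 0 in the control. There Plin1 stood at -0.08 and Cd36 lay above 0. Other lipid genes with too few UMIs did not all lie this way. Fasn stood at 0.71 in the control and -0.07 in immobilized cells, and Lipe at -0.35 and 0.25. Their intervals included 0, as did those of Cidec. Clustering at resolution 2.0 held an adipocyte-like cluster of 29 cells, 6 control and 23 immobilized, led by Fabp4 and Cfd. Its part in the ratios of Fabp4, Scd1 and Car3 was not tested.

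Of 12 osteo-primed and osteogenic genes measured in immobilized cells, 5 were past 1.5-fold lower with Tnfsf11 (Wif1, Tnc, Mmp13, Postn and Alpl), against 3.4% of all genes, and 0 higher. Their median was -0.51, and 3 of 12 lay above 0. In the control, 2 were lower (Spp1 and Col1a1) and 1 higher (Mmp13), against 2.8% and 3.55% of all genes, with a median of -0.14. Within cluster, Tnc moved from -0.82 to -0.11, Alpl from -0.84 to -0.10 and Wif1, a Wnt inhibitor, from -0.82 to -0.37. Mmp13, a collagenase gene, stood at 0.17 (0.02 to 0.32) within cluster in immobilized cells, and Postn at -0.56 (-1.63 to 0.43). The bone sialoprotein gene Ibsp stood at -0.14 and 0.26. Reads of Bglap and Bglap2, which stood between -0.15 and 0.20, can be shared between near-identical copies.

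Among 10 matrix proteases and inhibitors, all measured, Adamts1 was past 1.5-fold higher in both pools, Adamts5 in the control alone, and Timp1 lower in the control (-0.68, but 0.54 within cluster). Of all genes, 3.55% and 3.61% were higher and 2.8% and 3.4% lower in the control and immobilized sets. The medians of the list were 0.16 and 0.02. Of interferon-induced genes, 6 of 9 were measured in the control with 0 past 1.5-fold, against 6.34% of all genes, and a median of 0.07. In immobilized cells 3 of 9 were measured and 2 were lower, against 3.4% of all genes. These were Isg15 (-0.62, -1.36 to 0.09) and Bst2 (-0.90, -1.37 to -0.46).

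Markers that divide CAR cells parted the sets only in part. Of 4 such genes, Aldh1a2 passed 1.5-fold in both pools, Nrg3 in the control alone, Kit in immobilized cells alone and Cxcl14 in neither. Of all genes, 6.34% in the control and 7.01% in immobilized cells passed it in either direction. Cxcl14 stood at 2730.4 and 3941.2 CPM in the control (-0.53, -0.60 to -0.46) and 2823.1 and 3210.3 CPM in immobilized cells (-0.19, -0.27 to -0.10), and stayed lower within sex (-0.32 and -0.22) and within cluster (-0.41 and -0.22). Kit, the stem cell factor receptor, stood at 148.4 and 169.7 CPM in the control (-0.19). In immobilized cells it stood at 105.3 and 251.1 CPM (-1.25, -1.64 to -0.87), and at -0.36 (-0.75 to 0.02) within cluster. Nrg3, a neuregulin gene, stood at 181.6 and 86.7 CPM in the control (1.06, 0.68 to 1.47; 0.37 within cluster) and at 0.23 (-0.20 to 0.66) in immobilized cells.

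Markers of blood cells were also present in the sets. The 14 genes of free haematopoietic RNA summed to 669.5 CPM in cells with and 555.2 CPM in cells without Tnfsf11 in the control, and to 617.6 and 815.2 CPM in immobilized cells. In the immobilized sets the haemoglobin genes were lower in cells with Tnfsf11, with Hbb-bs at 87.2 and 260.1 CPM (-1.57), and the granulocyte genes S100a8 and S100a9 stood at 0.36 and 0.24. In the control, S100a8 stood at 0.67 and Hbb-bs at -1.01. Igkc, an immunoglobulin gene of plasma cells, had 0 UMIs with and 0.5 UMIs without Tnfsf11 in the control, and Mpo of granulocyte precursors had 0 in each set. Their part in the named ratios was not tested.

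Across cell clusters, likeness to the pattern of Tnfsf11 was measured by correlation. Over 26 sums of a cluster in a pool with at least 20 cells, Tgfbr3, a co-receptor of TGF-beta, had a Pearson r of 0.93 and a Spearman rho of 0.94 with Tnfsf11. Acadm, a fatty acid oxidation gene (0.92), the growth factor receptor gene Egfr (0.91), the myosin light chain gene Myl9 (0.91) and the fibrillin gene Fbn1 (0.91) followed. For tdTomato, Shisa4 (0.93), Luzp1 (0.92), Rhoc (0.92) and Pdk4 (0.92) were among the closest, but their rho lay between 0.50 and 0.64. Tnfsf11 and tdTomato themselves had an r of 0.25 and a rho of 0.09. The points share 2 libraries and range widely in depth, and these values describe the pattern across clusters only.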

How the data were processed

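Single-cell RNA-seq was deposited as raw UMI counts per gene and barcode, made by the authors with Cell Ranger 7.0.0 on mm10, as the submitters' processing notes and, per the file headers, the matrices record. Genes and barcodes were deposited beside the counts as text. Of 32286 features, 32235 matched GENCODE vM21, which gave coordinates.

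The lanes of a pool shared 1617 of 1620 control barcodes and 1747 of 1751 immobilized barcodes of lane 1, with 79.0% and 75.5% of lane 1 UMIs in common entry by entry, and were counted as 1 sample. Only 3 barcodes occurred in both pools. Filters used the sum of the lanes: 49 and 58 barcodes had under 500 genes and 146 and 300 reached 10% mitochondrial counts, some both. Scrublet called 18 control (1.11%) and 9 immobilized barcodes (0.515%) as doublets. They were kept, and leaving them out was an alternative. Cells were clustered in scanpy 1.11.5 (2000 variable genes, 30 components, 15 neighbours, Leiden resolution 1.0) and named by marker lists. A name needed at least 3 markers more than 2-fold over other cells and 30% of the list.

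Pairing by depth used a minimum-cost assignment with at most 1.25-fold difference in total UMIs. Ratios use a pseudocount of 0.5 UMIs, Tnfsf11 UMIs left out of totals, and a conditional binomial (exact) interval. Poisson intervals were used for levels and Clopper-Pearson ones for shares, both exact. All treat UMIs or cells as independent and cover neither the spread between cells nor that between animals. The code was tested on simulated counts.

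Named genes are the 12 highest and 12 lowest ratios per pool with at least 50 UMIs, UMIs in at least 10% of the cells of a set, an interval without 1 and the same sign in each lane, up to 20 genes past 1.5-fold in the same direction in both pools, those in opposite directions, and members of gene lists. Not ranked were Tnfsf11, Xist, genes on the Y chromosome, unnamed (Gm, Rik), ribosomal and mitochondrial genes, and those of haemoglobin or immunoglobulin. The 5 genes most like each of the 2 by Pearson r of log2(CPM + 1) across clusters needed a mean of 20 CPM. One of these is not reported here. The genes, lists and rules were chosen with earlier results of these data known, so no list supports a result independently. Promoter sequence is from RefSeq (GRCm38.p6).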

Additional observations from a re-analysis of the deposited data

Results flagged for a closer look

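The genes below had intervals on opposite sides of 0 in the pools, so cells with a Tnfsf11 UMI were higher in one pool and lower in the other. The difference between the pools was not tested, since each pool is 1 sample, and many genes were looked at. All values are log2 ratios of cells with over without a Tnfsf11 UMI at matched depth, with the control value first.

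Genes higher with Tnfsf11 in the control were Cxcl9 (1.52 and -2.10), Lcp2 (1.35 and -0.58), Adamts5 (1.18 and -0.54), Mmp13 (0.68 and -0.60) and Bst2 (0.45 and -0.90). Both Cxcl9 values rested on few cells. Immobilized cells had 22.5 UMIs with and 98 without Tnfsf11, in 4.43% and 7.28% of cells. Of these UMIs, 37.8% and 46.9% came from 1 cell of each set. The control value of Cxcl9 was -1.10 in lane 2 alone and -2.54 in male cells. Genes higher with Tnfsf11 after immobilization were Serpina3n (-0.95 and 1.21), Apod (-0.82 and 0.87), Tmtc3 (-0.77 and 0.88), Igfbp3 (-0.92 and 0.60), Il1r1 (-0.21 and 0.37), Lepr (-0.12 and 0.18) and Ibsp (-0.14 and 0.26). Adamts5 kept 0.49 within sex in the control. Igfbp3 stood at -0.19 (-0.64 to 0.26) and Tmtc3 at -0.63 (-1.34 to 0.04) within sex there, with intervals that included 0. Within sex in the control, Serpina3n stood at 0.13, Apod at 0.35, Mmp13 at -0.12, Ibsp at 0.26 (0.20 to 0.32), Lepr at 0.06 and Il1r1 at 0.05, each opposite to its control value above. Mmp13 within cluster stood at 0.17 (0.02 to 0.32) after immobilization, opposite to its value there.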

How the results depend on the processing

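No paired analysis was possible because each group is 1 pool of animals and its numbered samples are lanes of 1 library. The level of Tnfsf11 in CAR cells (log2 immobilized over control) was 1.05 in female and 1.85 in male cells, and 1.16 to 1.42 in single lanes, where tdTomato was 0.36 to 0.54. The number of genes tested differed between settings, so shares of the tested genes are given. With a minimum of 20 UMIs 1166 control (12.4%) and 1134 immobilized genes (12.7%) passed 1.5-fold. Without a minimum these were 2943 (21.9%) and 3010 (22.7%). After thinning they were 155 of 1879 (8.25%) and 154 of 2702 (5.70%). Pairing within cluster gave 250 control genes (4.20%), male cells 173 of 1949 control genes (8.88%) and female cells 130 of 1155 immobilized genes (11.3%). Single lanes gave 552 (9.55%) to 590 (11.1%) control and 559 (8.32%) to 573 (8.64%) immobilized genes. The difference in tdTomato share was -2.34 to 0.685 points in control lanes, 1.11 to 4.40 in immobilized lanes and 17.7 points (-7.16 to 40.6) in immobilized female cells. Fewer cells or UMIs entered the single-sex, thinned and within-cluster sets, and the cause of each move was not tested. Of 1456 gene values under alternatives, 1068 stayed within their counting interval and direction, 299 moved and 89 changed sign, and 59 of 104 genes by pool never changed sign. The log2 ratios that changed sign follow.

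With Lepr+ CAR-like clusters in place of the rule, the control values were 0.019 for Cadm1, 0.49 for Col11a2 and 0.030 for Timp1. The immobilized values were 0.14 for Col25a1, 0.38 for Fat3, 0.33 for Mmp13 and 0.0036 for Nlgn1. Without doublet calls, the control values were 0.017 for Col11a1, 0.17 for Col11a2 and 0.066 for Col1a1. With a Tnfsf11 UMI required in both lanes, the control values were 4.46 for Fabp4 and -0.53 for Tnfaip6. Paired within cluster, the control values were 0.0035 for Apod, 0.00038 for Col11a1, 0.32 for Col11a2, 0.18 for Col1a1, 0.54 for Timp1 and -0.31 for Tsix. The immobilized values were 0.17 for Mmp13, -0.35 for Ngp, 0.54 for Nlgn1 and -0.41 for Ptn. Paired within sex, the control values were 0.35 for Apod, 0.16 for Col11a2, 0.044 for Col1a1, 0.13 for Il34, -0.12 for Mmp13, 0.13 for Serpina3n and -0.10 for Tsix. The immobilized value was -0.063 for Ptn. In female cells, the control values were 0.60 for Apod, 0.073 for Col11a2, 0.032 for Col1a1, 0.036 for Il34, -0.17 for Mmp13, 0.20 for Timp1, -0.041 for Tnfaip6 and -0.11 for Tsix. The immobilized values were 0.48 for Alpl, 1.56 for Col25a1, 1.87 for Fat3, -0.73 for Igfbp3, 1.19 for Kcnip4, 1.05 for Kit, 0.53 for Lama2, -1.02 for Lrrn1, 0.063 for Mmp13, -1.61 for Ngp, 1.09 for Nhsl1, 1.33 for Nlgn1, -0.043 for Pde4d, -0.44 for Ptn, -0.10 for Rassf2, 0.39 for Rgs7bp, -0.27 for Rnf150, -0.25 for Tgfb2 and 0.16 for Tnc. In male cells, the control values were 0.14 for Apod, 0.56 for Col11a1, 0.42 for Col11a2, 0.072 for Col1a1, -2.54 for Cxcl9, -0.32 for Gbp6, 0.24 for Il34, -0.092 for Nr4a1, 0.36 for S100a1, 0.39 for Serpina3n and -0.45 for Tgfb2. The immobilized value was -0.0099 for Pi15. Without pairing by depth, the control value was 0.19 for Col1a1. With the stricter CAR rule, the control values were 0.27 for Rbp4 and -0.54 for Tnfaip6. With the stricter cell filter, the control value was 0.16 for Timp1. The immobilized values were 0.35 for Car3 and 0.077 for Scd1. After thinning to 2000 UMIs, the control values were -0.16 for Cxcl9, -0.10 for Gxylt2, -0.11 for Ifitm1 and 0.70 for S100a1. The immobilized values were 0.065 for Kcnq3, -0.027 for Ptn, -0.042 for Shisa9 and -0.50 for Tsix. Between single lanes, control values ran from -1.10 to 2.25 for Cxcl9, -0.11 to 1.33 for Tnfaip6, -1.27 to 3.02 for Fabp4 and -1.26 to 0.29 for Rbp4, and immobilized values from -0.96 to 0.38 for Kcnq3 and -0.67 to 0.98 for Tsix.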
